A study of Mus musculus with 26 samples.

Results

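The eukaryotic translation initiation factor genes were taken as the protein-coding genes of the GENCODE M1 annotation (mouse genome build mm9) whose symbol starts with Eif and a digit, which gave 58 of 22380 coding genes. A peak was assigned to a gene when its summit, the middle of the deposited interval, lay in the span of the gene. The 13 libraries held 453 such Eif peaks, of 46415 peaks in coding genes and 56538 peaks in all. The symbol rule also took in genes that are not subunits of initiation factors. Among them are 4 Argonaute genes that carry the older symbols Eif2c1 to Eif2c4, 4 kinases of eIF2 (Eif2ak1 to Eif2ak4) and 4 genes for proteins that bind the cap-binding protein eIF4E (Eif4ebp1, Eif4ebp2, Eif4ebp3 and Eif4enif1). Eif5a and Eif5a2, which act in elongation, were members as well.

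Translation of most messenger RNAs starts when the small ribosomal subunit is loaded at the capped end of the message and scans to a start codon. eIF2 brings the initiator tRNA, eIF1 and eIF1A keep the scanning subunit open, and eIF3, a large complex, holds these parts on the small subunit. The eIF4 group binds the cap (eIF4E), unwinds the leader (eIF4A with eIF4B and eIF4H) and links the message to eIF3 through the scaffold eIF4G. eIF5 triggers GTP hydrolysis by eIF2 at the start codon, eIF2B recharges eIF2, and eIF5B joins the large subunit. Kinases of eIF2 and the eIF4E-binding proteins slow these steps under stress or starvation.

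RNA 5-hydroxymethylcytosine (5hmC) is an oxidised form of 5-methylcytosine that enzymes of the Tet family can make. It was profiled by hMeRIP-seq, in which fragments of total RNA are pulled down with an antibody to 5hmC and sequenced beside an input library. WT ESC were wild-type mouse embryonic stem cells, TKO ESC were stem cells without Tet1, Tet2 and Tet3, and WT EB were embryoid bodies made from wild-type stem cells kept for 4 days without leukaemia inhibitory factor, each with 3 IP libraries. Tet2-KI ESC were stem cells with a tag added to the endogenous Tet2 and Tet2dRBD-KI ESC had the same tag on a Tet2 that lacks the RNA-binding domain. Each of these had 2 IP libraries. The knock-in cells came from picked clones, and apart from the tag and the missing domain they were described as wild-type. All stem cells were grown with leukaemia inhibitory factor. The study describes its replicates as independent experiments, whereas the sample labels give only replicate numbers.

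The peak lists held 498 to 10383 peaks per library, and 412 to 4195 coding genes had a peak. The sample descriptions begin with 1608 for replicate 1 of WT ESC and TKO ESC, with 1610 for replicate 1 of WT EB and with 1703 for replicates 2 and 3 of all 3 groups, and the knock-ins have no such number. What the number stands for is not given in the sources used here. The lists give no read depth, so a gene without a peak is one in which no peak passed the threshold and not one shown to lack 5hmC. Transcript levels were not measured in these files, and their part in any difference between genes or groups was not tested. For the same reason the labelled cell types could not be checked by marker levels. Of 7 stem cell markers 5 had a peak in some library, and of 6 markers of early differentiation 2 did. Tet1 carried a peak in 11 of 13 libraries, all 3 TKO ESC libraries among them, Tet2 in 5 libraries, none of them TKO ESC, and Tet3 in 1. Where these peaks lie relative to the deleted parts was not examined, so they do not check the knockout.

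Overlapping Eif peaks of different libraries were joined into 121 regions, and the sequences below are from widely found regions in coding sequence or introns. Regions were taken by the number of libraries, up to 2 per gene, and the region of Eif1a and intervals with untranslated exon bases are not shown. For each, the 200-base interval of the WT ESC peak with the highest fold enrichment is shown on the transcript strand, 5′ to 3′. Capitals mark runs of at least 10 purines (A or G), which most Eif peaks in coding sequence held, except in the Eif4g3 interval, which holds no such run. There they mark the 5 copies of the 15-base word that recurs most often in it.
Eif3a, exon 20, chr19:60839962-60840161, minus strand: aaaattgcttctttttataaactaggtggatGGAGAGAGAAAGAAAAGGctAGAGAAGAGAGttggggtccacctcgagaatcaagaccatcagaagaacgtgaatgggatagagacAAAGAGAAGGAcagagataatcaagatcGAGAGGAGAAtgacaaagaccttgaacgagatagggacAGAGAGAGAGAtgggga
Eif3a, exon 17, chr19:60844617-60844816, minus strand: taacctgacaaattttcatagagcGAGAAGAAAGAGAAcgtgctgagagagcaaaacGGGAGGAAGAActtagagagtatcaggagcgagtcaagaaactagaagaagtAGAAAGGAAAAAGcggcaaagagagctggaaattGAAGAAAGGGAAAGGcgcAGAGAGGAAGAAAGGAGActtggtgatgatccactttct
Eif5b, exon 4, chr1:38076173-38076372, plus strand: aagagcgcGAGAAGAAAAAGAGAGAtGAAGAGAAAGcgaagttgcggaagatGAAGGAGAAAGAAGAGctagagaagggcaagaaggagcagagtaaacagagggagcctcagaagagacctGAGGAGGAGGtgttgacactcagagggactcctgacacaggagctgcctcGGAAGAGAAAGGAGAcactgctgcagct
Eif4g3, intron 3, chr4:137603155-137603354, plus strand: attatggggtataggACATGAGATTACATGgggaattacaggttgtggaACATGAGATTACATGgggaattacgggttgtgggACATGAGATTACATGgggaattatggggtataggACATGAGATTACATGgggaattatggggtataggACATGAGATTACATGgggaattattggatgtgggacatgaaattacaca
Eif5b, exon 10, chr1:38092906-38093105, plus strand: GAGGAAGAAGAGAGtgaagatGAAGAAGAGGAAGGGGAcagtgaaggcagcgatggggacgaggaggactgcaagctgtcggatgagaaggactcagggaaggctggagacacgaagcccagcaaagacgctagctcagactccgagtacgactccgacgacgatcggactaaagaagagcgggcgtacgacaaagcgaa
Eif3b, exon 1, chr5:140895506-140895705, plus strand: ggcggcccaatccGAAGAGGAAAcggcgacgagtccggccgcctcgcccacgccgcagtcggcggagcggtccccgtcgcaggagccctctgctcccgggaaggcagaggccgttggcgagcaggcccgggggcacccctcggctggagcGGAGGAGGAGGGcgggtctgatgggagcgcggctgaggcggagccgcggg
The Eif3a interval in exon 20 of 22 holds 175 coding bases, and the one in exon 17 holds 179. The rest of both is intron at the exon edge. Both Eif5b intervals and the Eif3b interval lie in coding sequence over all 200 bases. The 2 Eif3a intervals and the exon 4 interval of Eif5b hold 5 purine runs each, covering 61, 71 and 68 bases, and 73.0%, 74.0% and 75.5% of their bases are purines. The Eif3b interval, in the first exon, has 2 runs of purines and 59.0% purine. The Eif4g3 interval, in intron 3 of a gene with 35 exons, is built from a repeated unit and has no coding base.

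Peaks fell in a larger share of Eif genes than of coding genes as a whole. A peak was found in at least 1 library in 37 of the 58 Eif genes (63.8%), against 32.2% of all coding genes. In at least 5 libraries it was found in 16 Eif genes (27.6%, background 10.1%), in at least 10 libraries in 7 (12.1%, background 2.25%) and in all 13 libraries in 2 (3.45%, background 0.349%). The 7 were Eif1a, Eif2c1, Eif3a, Eif4g1, Eif4g3, Eif5 and Eif5b, and the genes with a peak in all 13 libraries were Eif3a and Eif5b. The median span was 19464 bp for Eif genes and 15421 bp for all coding genes. Among genes with a peak it was 24056 bp for Eif genes and 37725 bp for all coding genes, and among Eif genes without a peak 10492 bp. The part of gene length in the larger share was not tested.

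In each of the 13 libraries the share of Eif genes with a peak exceeded that of coding genes, by a ratio of 1.93 to 4.68 (median 2.58). The Eif genes with a peak numbered 10, 16 and 17 in WT ESC, 6, 14 and 10 in TKO ESC, and 5, 8 and 11 in WT EB. They numbered 28 and 20 in Tet2-KI ESC and 19 and 13 in Tet2dRBD-KI ESC. The shortest list, of 498 peaks, had 5 such genes and the longest, of 10383, had 28, but the order did not follow list length throughout.

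**Figure D1:**
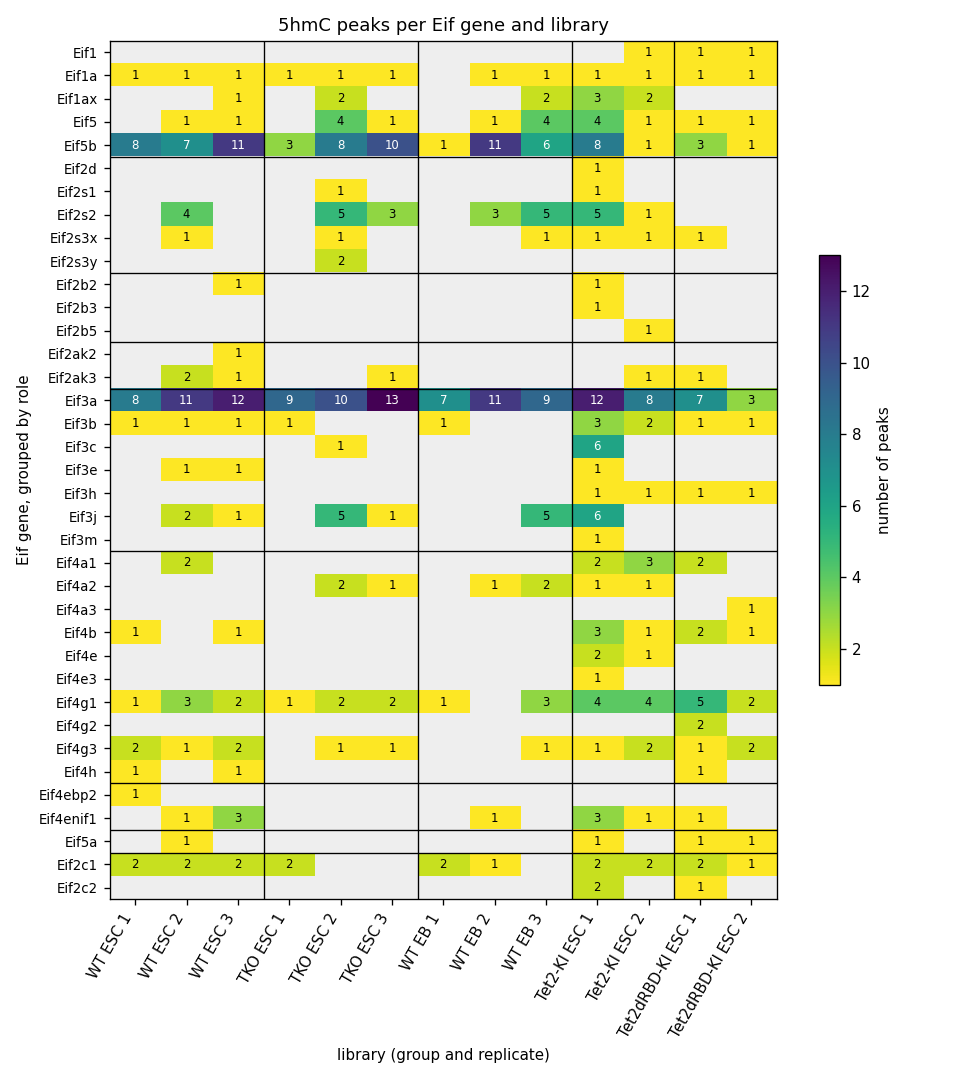
Number of 5hmC peaks in each of the 37 Eif genes with a peak (rows, grouped by role and split by black lines) in each of the 13 libraries (columns, by group and replicate). Grey cells have no peak. Eif3a and Eif5b form the dark rows with a peak in every column, and Tet2-KI ESC replicate 1 has the most filled cells, 28.

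Among the start-site and subunit-joining factors, 5 of 8 genes had a peak. Eif5b, the GTPase that joins the ribosomal subunits (chr1:38054855-38112424), had 8, 7 and 11 peaks in WT ESC, 3, 8 and 10 in TKO ESC and 1, 11 and 6 in WT EB. It had 8 and 1 in Tet2-KI ESC and 3 and 1 in Tet2dRBD-KI ESC, and the ranges of all compared groups overlapped. Eif1a, which encodes a form of the scanning factor eIF1A (chr18:46757358-46769879), had exactly 1 peak in 12 of 13 libraries and none in WT EB replicate 1, the shortest list. All 12 lay in 1 region of coding exon 3 of 4, chr18:46767437-46767702. Its X-linked relative Eif1ax (chrX:155810110-155827860) had 1 peak in WT ESC replicate 3, 2 in TKO ESC replicate 2, 2 in WT EB replicate 3, and 3 and 2 in the Tet2-KI ESC libraries. The sequences of Eif1a and Eif1ax are alike, and how reads mapping to several places were treated is not given in the sources used here, so peaks of such pairs are uncertain. The same holds for Eif2s3x and Eif2s3y, for Eif4a1 and Eif4a2, and for Eif3c. Eif5, the GTPase-activating factor (chr12:112776312-112794270), had a peak in 10 libraries, with 4 each in TKO ESC replicate 2, WT EB replicate 3 and Tet2-KI ESC replicate 1 and at most 1 in the others. Eif1, which guards start codon choice (chr11:100181199-100183410), had 1 intronic peak each in Tet2-KI ESC replicate 2 and both Tet2dRBD-KI ESC libraries.

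Of the 6 genes of eIF2 and related factors, 5 had a peak, and Eif2s2 had most of them, 26 of 37. Eif2s2, the beta subunit (chr2:154697146-154718671), had 4 peaks in WT ESC replicate 2, 5, 3, 3, 5 and 5 in replicates 2 and 3 of TKO ESC, replicates 2 and 3 of WT EB and the first Tet2-KI ESC library, and 1 in the second. The other 6 libraries had none. All 26 summits also lie in the span of the annotated coding gene a, so their transcript of origin is uncertain. Eif2s3x, the X-linked gamma subunit (chrX:91434046-91458201), had 1 peak in each of 6 libraries, and its Y-linked copy Eif2s3y had 2 in TKO ESC replicate 2 only. Eif2s1, the alpha subunit that is phosphorylated under stress, had 1 peak each in 2 libraries. Of the 5 eIF2B genes, 3 had a peak, with 4 peaks in all. Among the kinases, Eif2ak3, the sensor of unfolded protein in the endoplasmic reticulum (chr6:70794509-70855239), had 6 peaks in 5 libraries, Eif2ak2 had 1, and Eif2ak1 and Eif2ak4 had none.

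The eIF3 complex held 167 of the 453 Eif peaks, and 120 of them (26.5% of all Eif peaks) were in Eif3a, its largest subunit (chr19:60837019-60866596). Eif3a had 8, 11 and 12 peaks in WT ESC, 9, 10 and 13 in TKO ESC and 7, 11 and 9 in WT EB. It had 12 and 8 in Tet2-KI ESC and 7 and 3 in Tet2dRBD-KI ESC. The ranges of the first 3 groups overlapped, and both Tet2dRBD-KI ESC libraries were below both Tet2-KI ESC libraries in number. As a share of the coding-gene peaks, which also did not overlap in number, Eif3a had 0.142% and 0.154% against 0.173% and 0.0988%, and these overlapped. Of the other 12 subunit genes, 6 had a peak. Eif3b (chr5:140895259-140919314) had 12 peaks in 9 libraries, all in coding sequence, and none in TKO ESC replicates 2 and 3 or WT EB replicates 2 and 3. Eif3j, a loosely bound subunit (chr2:121854282-121882334), had 20 peaks in 6 libraries, with 5, 5 and 6 of them in TKO ESC replicate 2, WT EB replicate 3 and Tet2-KI ESC replicate 1. Eif3h (chr15:51618104-51697027) had 1 intronic peak in each of the 4 knock-in libraries and none in the 9 others. The share of all coding genes with this pattern was not counted. Eif3c had 6 peaks in Tet2-KI ESC replicate 1 and 1 in TKO ESC replicate 2. Eif3d, Eif3f, Eif3g, Eif3i, Eif3k and Eif3l had none.

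In the eIF4 group, 10 of 12 genes had a peak, with 80 peaks in all. Eif4g1, the main scaffold (chr16:20668386-20692957), had 1, 3 and 2 peaks in WT ESC, 1, 2 and 2 in TKO ESC, 1, 0 and 3 in WT EB, 4 and 4 in Tet2-KI ESC and 5 and 2 in Tet2dRBD-KI ESC. None of its 30 summits was in coding sequence: 22 were intronic, 7 were in the 3′ UTR and 1 in the 5′ UTR. Its paralogue Eif4g3 (chr4:137548937-137764423) had 14 peaks in 10 libraries, 13 of them intronic. Of these, 10 lay in the region of intron 3 with the repeated unit, 1 in each of the 10 libraries. The mapping of reads in this region is uncertain as well. Eif4b, a cofactor of the helicase (chr15:101904204-101927603), had 9 peaks in 6 libraries, none of them TKO ESC or WT EB. The helicase genes Eif4a1 (chr11:69480438-69485925) and Eif4a2 (chr16:23107517-23114209) had 9 peaks in 4 libraries and 8 peaks in 6 libraries, none in coding sequence. Eif4e, the cap-binding protein (chr3:138189155-138220563), had 2 and 1 peaks in the Tet2-KI ESC libraries and none in the other 11. Eif4e1b and Eif4e2 had no peak.

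Among the regulators, Eif4enif1, which carries eIF4E into the nucleus (chr11:3102395-3144591), had 10 peaks in 6 libraries, all of them also in the annotated span of Drg1. Eif4ebp2 had 1 peak, and Eif4ebp1 and Eif4ebp3 had none. Eif5a, a factor that helps elongation (chr11:69730216-69735460), had 1 peak in each of 4 libraries, and Eif5a2 had none. Eif2c1, an Argonaute protein of microRNA silencing (chr4:126112256-126145878), had 18 peaks in 10 libraries, 2 each in the 3 WT ESC libraries, TKO ESC replicate 1, WT EB replicate 1, both Tet2-KI ESC libraries and Tet2dRBD-KI ESC replicate 1. All 18 were in the 3′ UTR, in the regions chr4:126115706-126115923 and chr4:126116066-126116340. Eif2c2 had 3 peaks, and Eif2c3 and Eif2c4 had none.

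Eif3a and Eif5b together held 198 of the 453 Eif peaks (43.7%). By the number of peaks over the 13 libraries, Eif3a ranked 4 and Eif5b ranked 24 among all coding genes, and the next Eif gene, Eif4g1, ranked 250. The peaks of both genes were packed into part of the transcript. In Eif3a all 120 summits lay 17.9 to 28.4 kb from the gene start, in a gene of 29.6 kb, between exons 12 and 22 of 22. In Eif5b all 78 lay within 38.2 kb of the start of a gene of 57.6 kb, and none lay beyond exon 10 of 24. The intervals covered 2103 of 4032 coding bases of Eif3a (52.2%) and 1721 of 3648 of Eif5b (47.2%). Purines made up 67.5% of the covered and 54.7% of the uncovered coding bases of Eif3a, and 71.1% and 57.1% of those of Eif5b.

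**Figure D2:**
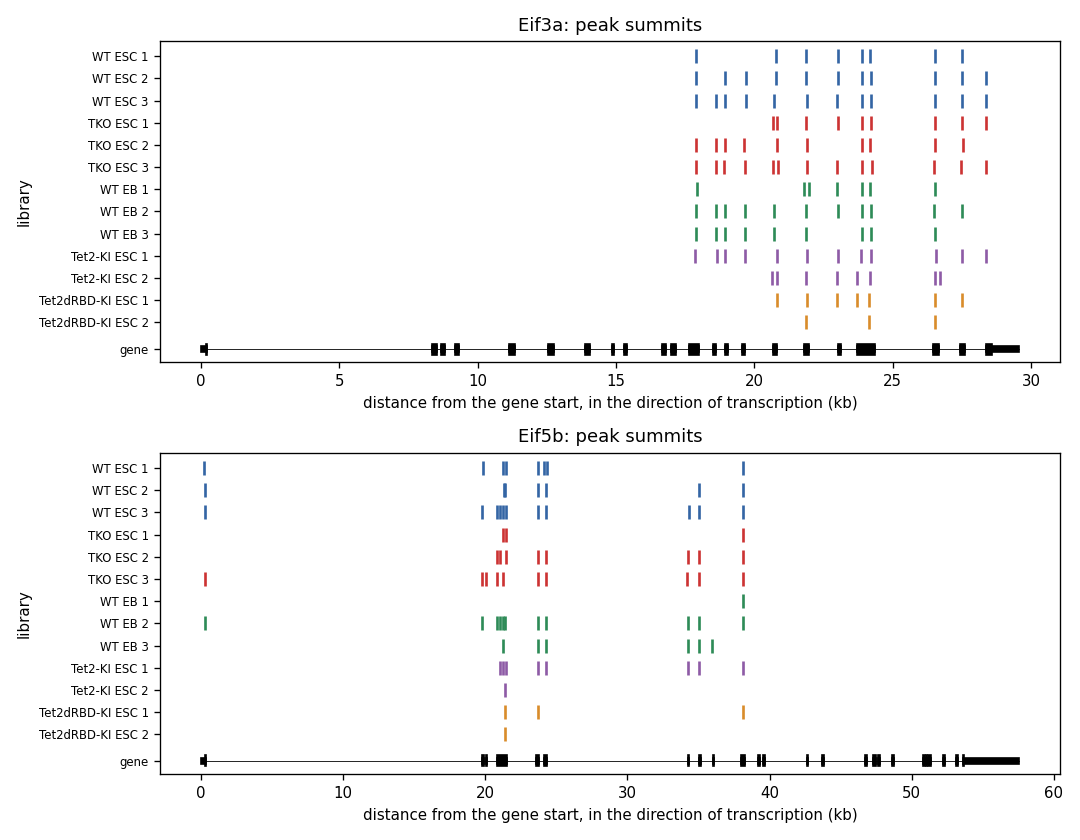
Peak summits (ticks) in Eif3a and Eif5b by distance from the gene start in kb, with 1 row for each of the 13 libraries coloured by group, above the exons of the transcript with the longest coding sequence (tall boxes coding, low boxes untranslated). The Eif3a ticks lie between 17.9 and 28.4 kb and line up across libraries, and the Eif5b ticks end at 38.2 kb.

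The same places were marked in libraries of different groups. Of the 121 Eif regions, 57 were found in 1 library only (47.1%), against 54.3% of the 19450 regions of all coding genes joined in the same way. In at least 5 libraries were 34 (28.1%, background 13.2%), in at least 10 were 11 (9.09%, background 2.07%) and in all 13 were 3 (2.48%, background 0.272%). The 3 were in Eif3a, in exons 20, 19 and 17, at chr19:60839781-60840194, chr19:60842228-60842547 and chr19:60844503-60844905. A further region in exon 19, chr19:60842590-60842993, was found in 12 libraries, as was that of Eif5b in exon 4, chr1:38075998-38076391, and that of Eif1a. Of the 34 regions, 12 were in Eif3a and 8 in Eif5b, which held 12 and 11 of all 121. Among those in at least 10 libraries, only the regions of Eif1a, intron 3 of Eif4g3 and chr4:126115706-126115923 of Eif2c1 lay outside these 2 genes. The excess over the background thus rested largely on Eif3a and Eif5b. Joining peaks only at an overlap of at least 100 bp gave 134 regions.

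Eif peaks were in exons more often than peaks of coding genes in general. Of the 453 Eif peaks, 214 were in coding sequence, 193 in introns, 34 in 3′ UTRs and 12 in 5′ UTRs. Thus 57.4% were exonic, against 32.1% for all coding genes, and 46.3% without Eif3a and Eif5b, an alternative chosen after seeing the data. The exonic share of Eif peaks was the larger in 12 of 13 libraries, the exception being WT EB replicate 3 with 43.6% against 44.7%. Without Eif3a and Eif5b it was the larger in 10 of 13. Per kb of exon there were 1.20 Eif peaks over the 13 libraries and 0.227 peaks of all coding genes, and per kb of intron 0.103 and 0.0343. Without Eif3a and Eif5b the Eif densities were 0.579 per kb of exon and 0.0761 per kb of intron. Peaks of 1 gene share a transcript, so these shares are descriptions.

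Many of the intronic Eif peaks were at the edge of an exon. Their median distance to the nearest exon end was 37 bp, against 1595 bp for all coding genes, and 132 of 193 (68.4%) lay within 100 bp of an exon end, where the 200 bp interval reaches the exon. For all coding genes the share was 21.9%. Introns of Eif genes were shorter, with 8.79% of intronic bases within 100 bp of an exon against 3.94%. The Eif share was the larger in all 13 libraries. Without Eif3a and Eif5b it was 55.5% (76 of 137 peaks), and it was the larger in the 12 libraries that had such peaks. The spans of Eif genes hold 19 annotated small RNA genes, and no intronic Eif peak interval overlapped one.

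**Figure D3:**
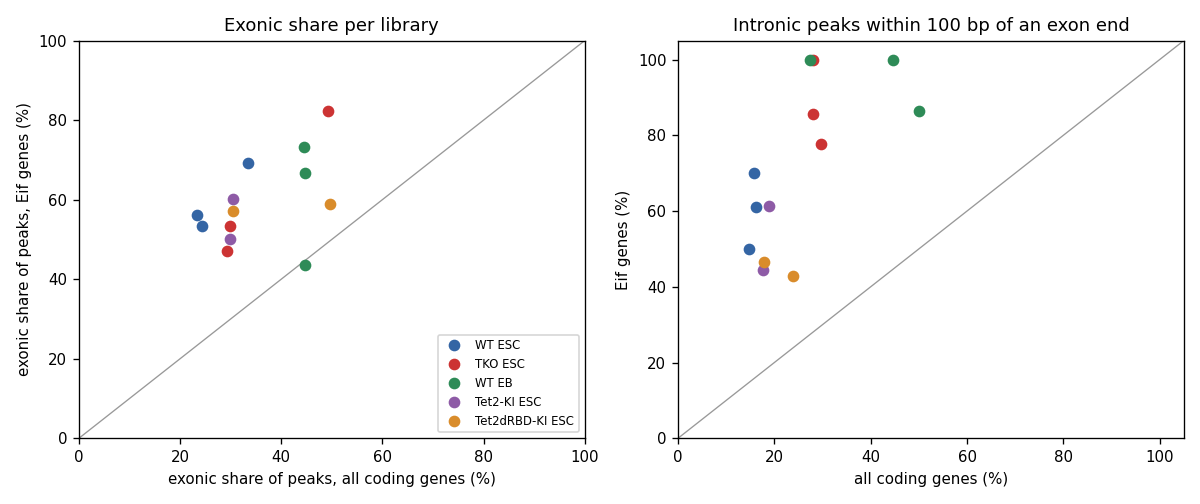
Each point is 1 of the 13 libraries, coloured by group. The left panel sets the exonic share of Eif peaks (vertical, %) against that of peaks of all coding genes (horizontal, %), and 12 points lie above the line of equality. The right panel does so for the share of intronic peaks within 100 bp of an exon end, and all 13 points lie above the line.

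In coding sequence, Eif peaks were poorer in pyrimidines (C and T) than coding-sequence peaks of all genes, with means of 35.7% over 214 peaks and 39.9% over 11347. A run of at least 10 purines was present in 78.0% and 63.5% of these peaks. Without Eif3a and Eif5b the pyrimidine share was 42.1% and a purine run was present in 75.3%, so the lower pyrimidine share rested on these 2 genes. A tandem repeat of short units was present in 2.65% of all Eif peaks, in 4.71% of them without Eif3a and Eif5b, and in 7.48% of all peaks in coding genes.

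Fold enrichment, the ratio of IP to input at the summit, was deposited for all 9 libraries but the knock-ins. The median over Eif peaks was 5.67, 6.12 and 5.66 in WT ESC, 5.78, 6.68 and 6.51 in TKO ESC, and 3.45, 5.86 and 8.20 in WT EB. It was below the median of all peaks in coding genes in 7 of 9 libraries. The regions with the most values differed widely among themselves. The region of Eif1a had a fold enrichment of 13.5, 9.02 and 8.98 in WT ESC, 10.5, 17.9 and 17.3 in TKO ESC, and 12.0 and 16.9 in WT EB replicates 2 and 3. That of Eif5b in exon 4 had 9.79, 11.6 and 11.4, then 8.62, 10.0 and 16.4, and 11.8 and 21.5 in the same libraries. In both, WT ESC values lay within or below the range of the other groups. Their means were 13.2 ± 3.71 (SD, n = 8) and 12.6 ± 4.27 (n = 8), and those of the 3 regions of Eif3a found in all libraries 5.71 ± 1.78, 5.52 ± 1.36 and 4.27 ± 1.07 (n = 9 each). The Eif2c1 region at chr4:126115706-126115923 had 16.4 ± 8.69 (n = 6), with values of 27.2, 26.6 and 16.1 in WT ESC, 11.8 in the only TKO ESC library with a peak there, and 6.38 and 10.5 in WT EB replicates 1 and 2. The intronic Eif4g3 region, chr4:137603108-137603389, had 11.7 ± 4.35 (n = 6). The Eif3b region in exon 1, chr5:140895295-140895718, had 2.63 ± 0.560 (n = 5). Only libraries with a peak give a value, so these means leave out the weaker signals.

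**Figure D4:**
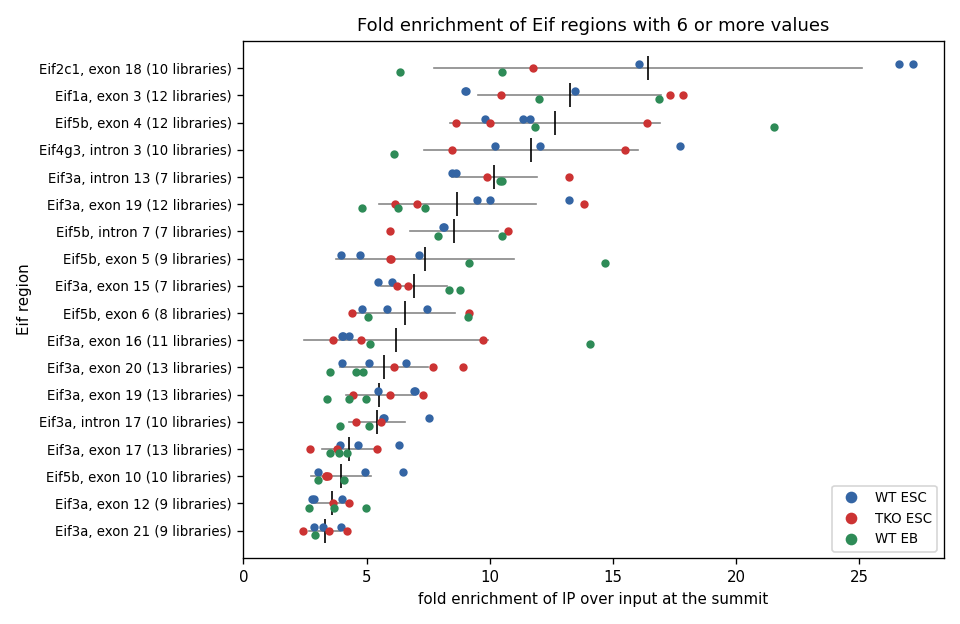
Fold enrichment of IP over input at the summit (horizontal axis) for the 18 Eif regions with at least 6 values, each point 1 library coloured by group, with the mean (black tick) and SD (grey line). Regions are ordered by their mean, from 3.29 in exon 21 of Eif3a to 16.4 in exon 18 of Eif2c1.

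The comparison of WT ESC with TKO ESC asks whether peaks in Eif genes were retained without the Tet enzymes. Of the Eif genes, 7 had a peak in every WT ESC library (background 4.99% of coding genes) and 4 in every TKO ESC library (background 1.34%), namely Eif1a, Eif3a, Eif4g1 and Eif5b. No Eif gene had a peak in every WT ESC library and none in TKO ESC (background 1.05%), and none had the reverse (background 0.0179%). The background rose when fewer libraries had to meet the rule. The first count was 2 without WT ESC replicate 1 (Eif3e and Eif4enif1, background 2.44%), without WT ESC replicate 2 (Eif4b and Eif4h, background 1.75%) or without TKO ESC replicate 1 (Eif2c1 and Eif3b, background 1.26%). The reverse was 1, Eif4a2, without TKO ESC replicate 1 (background 0.38%). Among the 1703 libraries, which leave out every replicate 1, the counts were 4 (background 2.67%) and 1 (background 0.407%). WT ESC had a peak in 14.3 ± 3.79 Eif genes, against 10.0 ± 4.00 for TKO ESC (SD over n = 3 libraries a group), a difference of 4.33 that was within the spread (two-sided exact permutation test, p = 0.3, adjusted p = 0.611 over 11 tests). It was 2.33 without TKO ESC replicate 1 and 6.50 without WT ESC replicate 1, and 0 with each list shortened to its 498 peaks of highest fold enrichment or with peaks at or above a fold enrichment of 6.18, the median of all peaks. On average 24.7% of Eif genes in WT ESC and 17.2% in TKO ESC had a peak. Over all coding genes the shares were 11.8% and 6.04%, so the lower number was not particular to Eif genes.

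Eif peaks made up a larger share of the coding-gene peaks in TKO ESC. The share was 0.870%, 0.771% and 0.925% in WT ESC and 2.17%, 1.16% and 1.26% in TKO ESC, so that every TKO ESC library was above every WT ESC library. The means were 0.856% ± 0.0781 and 1.53% ± 0.559 (n = 3 each), a difference of −0.673 percentage points (two-sided exact permutation test, p = 0.1, the smallest that 3 against 3 libraries allow, adjusted p = 0.55). The TKO ESC lists were shorter, with 783, 3882 and 2709 coding-gene peaks against 2988, 5317 and 4647. The groups overlapped with lists of 498 peaks, where the difference was −0.0598 (exact permutation p = 0.9). They overlapped also without Eif3a and Eif5b, with a difference of −0.181 (exact permutation p = 0.3) and TKO ESC replicate 3 at 0.406% below WT ESC replicates 2 and 3 at 0.433% and 0.430%. The difference was −0.352 without TKO ESC replicate 1 and −0.359 among the 1703 libraries.

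At the level of regions, 18 of the 121 Eif regions (14.9%) were found in every WT ESC library and 9 (7.44%) in every TKO ESC library. Over the regions of all coding genes the shares were 5.78% and 1.58%. These 9, in Eif1a, Eif3a and Eif5b, were all among the 18 found in WT ESC. Outside Eif3a and Eif5b, the 18 held only the regions of Eif1a, both of Eif2c1, exon 1 of Eif3b and intron 3 of Eif4g3. The 9 held only that of Eif1a, so in both counts the excess over the background rested on Eif3a and Eif5b. In none of the 9 did the fold enrichment of the groups separate. In the Eif1a region it was 10.5 ± 2.58 with the Tet genes and 15.2 ± 4.12 without, and in the exon 4 region of Eif5b 10.9 ± 0.997 and 11.7 ± 4.15 (SD over n = 3 libraries a group). In the exon 20 region of Eif3a it was 5.24 ± 1.31 and 7.57 ± 1.40. The exact permutation p-values were 0.2, 0.9 and 0.2, and over the 9 regions adjusted p ranged from 0.72 to 1. In these regions the mean of WT ESC was the lower, as in exon 16 of Eif3a (difference −1.93). It was the higher in the Eif3a regions of exon 21 (0.00786), exon 19 (0.552 and 1.88) and exon 17 (0.986), and in exon 10 of Eif5b (1.44).

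In WT EB, 2 Eif genes had a peak in every library, Eif3a and Eif5b (background 0.626%). No Eif gene had a peak in every WT ESC library and none in WT EB (background 2.06%), or the reverse (background 0.00894%). The first count was 2 without WT ESC replicate 1 (background 4.12%) or without WT ESC replicate 2 (2.92%), and 1 without WT EB replicate 1 (2.32%) or without WT EB replicate 3 (2.58%). The reverse was 1, Eif4a2, without WT EB replicate 1 (background 0.201%). Among the 1703 libraries the counts were 3 (background 4.46%) and 1 (background 0.246%). Over all coding genes, 4.12% had a peak in WT EB and 11.8% in WT ESC on average, against 13.8% and 24.7% of Eif genes. A peak was found in 8 ± 3 Eif genes (SD, n = 3), 6.33 fewer than in WT ESC (two-sided exact permutation test, p = 0.2, adjusted p = 0.55). With lists of 498 peaks the direction turned, with a difference of −1.33 genes (exact permutation p = 0.1, the smallest possible). With peaks at or above a fold enrichment of 6.18 the difference was 2.67 (exact permutation p = 0.6). The Eif share of coding-gene peaks was 2.64%, 1.84% and 1.19%, again above all WT ESC libraries, with a mean of 1.89% ± 0.725 (n = 3) and a difference of −1.04 points (exact permutation p = 0.1, adjusted p = 0.55). Here the difference was −0.922 with lists of 498 peaks, −0.514 with peaks at or above a fold enrichment of 6.18, −0.302 without Eif3a and Eif5b, −0.669 among the 1703 libraries and −0.662 without WT EB replicate 1. Both comparisons share the WT ESC libraries.

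**Figure D5:**
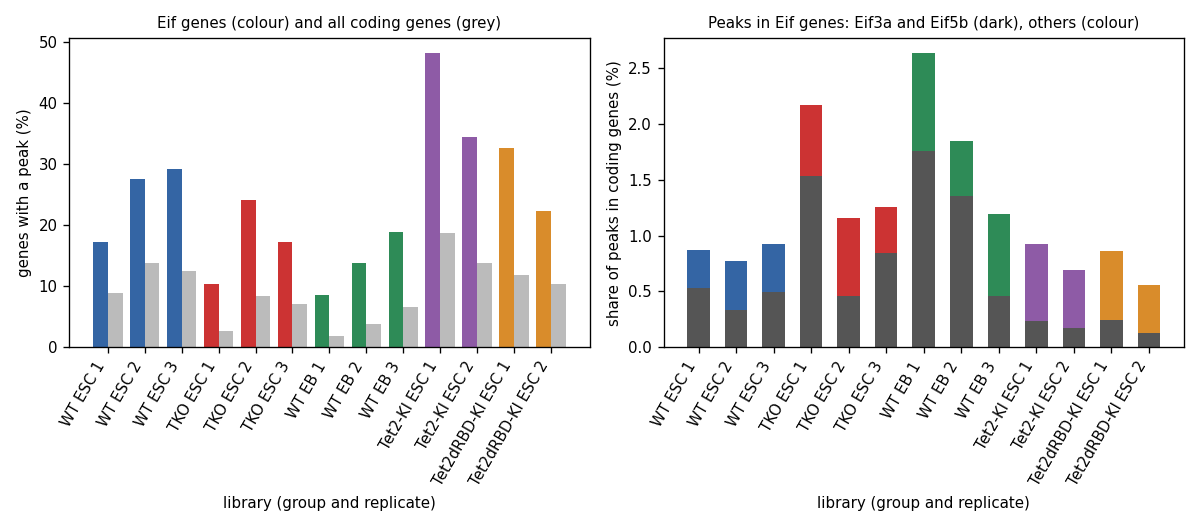
Left: share of Eif genes (coloured bars) and of all coding genes (grey bars) with a peak, in % and per library, where the Eif bar is higher in all 13 libraries. Right: Eif peaks as a share of the peaks in coding genes (%), with Eif3a and Eif5b as the dark part of each bar, which ranges from 0.560% in Tet2dRBD-KI ESC replicate 2 to 2.64% in WT EB replicate 1 in total.

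All 5 Eif regions found in every WT EB library (4.13%, background 0.545%) were in Eif3a and were also found in every WT ESC library. In the exon 19 region at chr19:60842590-60842993 the fold enrichment was 9.47, 10.0 and 13.2 in WT ESC and 4.81, 7.38 and 6.28 in WT EB, and every WT EB library was below every WT ESC library. The difference of 4.73 had an exact permutation p of 0.1 (adjusted p = 0.25 over 5 regions). The neighbouring region at chr19:60842228-60842547 had 6.45 ± 0.845 and 4.23 ± 0.789 (SD, n = 3 each), also without overlap (exact permutation p = 0.1, adjusted p = 0.25). In the other 3 regions the groups overlapped. How often regions of all coding genes separated in this way was not tested.

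In the knock-in cells, 17 Eif genes had a peak in both Tet2-KI ESC libraries (background 10.3%) and 12 in both Tet2dRBD-KI ESC libraries (background 5.91%). In both Tet2-KI ESC libraries and neither Tet2dRBD-KI ESC library were Eif1ax, Eif2s2, Eif4a2 and Eif4e, 4 of 58 genes against a background of 2.45% of coding genes. No Eif gene had the reverse (background 0.492%). The list grew to 13 genes without Tet2-KI ESC replicate 2 (22.4% of Eif genes, background 8.05%) and to 7 without Tet2dRBD-KI ESC replicate 1 (12.1%, background 5.12%). The reverse grew to 2 without Tet2dRBD-KI ESC replicate 2 (background 1.85%) and to 1 without any other of the 4 libraries (backgrounds 0.952% to 2.8%). Tet2-KI ESC had a peak in 24.0 ± 5.66 Eif genes and the cells without the RNA-binding domain in 16.0 ± 4.24 (SD over n = 2 libraries a group), 8 more in Tet2-KI ESC and without overlap (two-sided exact permutation test, p = 0.333, the smallest that 2 against 2 libraries allow, adjusted p = 0.611). Leaving out Tet2-KI ESC replicate 1 the difference was 4, and leaving out its replicate 2 it was 12. Leaving out Tet2dRBD-KI ESC replicate 2 it was 5. Of all coding genes, 18.7% and 13.8% had a peak in the Tet2-KI ESC libraries, against 11.8% and 10.4%, also without overlap. The Tet2-KI ESC lists were longer, with 8454 and 5193 coding-gene peaks against 4047 and 3037. The Eif share of them was 0.923% and 0.693% against 0.865% and 0.560%, and these overlapped (difference 0.0956 points, exact permutation p = 0.667, adjusted p = 1).

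Of the Eif regions, 25 were found in both Tet2-KI ESC libraries (20.7%, background 14.3%) and 15 in both Tet2dRBD-KI ESC libraries (12.4%, background 6.58%). In both of the former and neither of the latter were 5 (4.13%), a share near the 5.05% of all coding-gene regions. The 5 were the first exon of Eif1ax (chrX:155810109-155810328), exon 11 of Eif2s3x (chrX:91441602-91441844), intron 1 of Eif4a2 (chr16:23108240-23108516), exon 7 of Eif4e (chr3:138216458-138216736) and intron 31 of Eif4g1 (chr16:20690068-20690299). Those of Eif1ax, Eif4a2 and Eif4e were found in no other library, with the mapping of Eif1ax, Eif2s3x and Eif4a2 uncertain as above, and that of Eif4g1 was also found in 2 libraries each of WT ESC and TKO ESC and in 1 of WT EB. A region in coding exon 8 of Eif4b (chr15:101919015-101919460) was found in all 4 knock-in libraries and in none of the other 9. The share of all coding-gene regions with this pattern was not counted. 

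The exonic share of Eif peaks, by the summit, overlapped in all 3 pairs of groups (differences −1.31, −1.59 and −2.85 percentage points, exact permutation p = 1, 0.9 and 1). When any overlap of the 200 bp interval with an exon counted as exonic, WT ESC was lower than TKO ESC by a difference of −9.33 points and lower than WT EB by −12.9, both without overlap (exact permutation p = 0.1, the smallest possible). Over all coding genes the share of intronic peaks within 100 bp of an exon end was 14.8% to 16.2% in WT ESC, 28.0% to 29.7% in TKO ESC and 27.4% to 50.0% in WT EB, and also separated WT ESC from both. The median fold enrichment of Eif peaks differed by −0.507 between WT ESC and TKO ESC and by −0.0198 between WT ESC and WT EB, with overlap (exact permutation p = 0.2 and 1). The first of these groups no longer overlapped with summits in 1 coding gene only (difference −0.645) or without TKO ESC replicate 1 (−0.778), each with an exact permutation p of 0.1. Its direction turned with peaks at or above a fold enrichment of 6.18 (0.408, exact permutation p = 0.6) and with lists of 498 peaks (1.39, exact permutation p = 0.7), which also moved the difference from WT EB to 5.37.

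Libraries of different groups shared dense peaks in the same Eif genes, which was seen in the values and not sought beforehand. TKO ESC replicate 2, WT EB replicate 3 and Tet2-KI ESC replicate 1 each had at least 3 peaks in Eif2s2, Eif3a, Eif3j, Eif5 and Eif5b. No other library had more than 2 peaks in Eif3j or more than 1 in Eif5. These libraries had 4323, 3532 and 10383 peaks in all, while WT ESC replicate 2, with 7113, had 2 peaks in Eif3j and 1 in Eif5. WT ESC replicate 3, with 6499 peaks, had 1 in each, and Tet2-KI ESC replicate 2, with 5781, had none in Eif3j and 1 in Eif5. Over all coding genes too, TKO ESC replicate 2, WT EB replicate 3 and Tet2-KI ESC replicate 1 held the most peaks per gene with a peak. They had 3882, 3276 and 8454 peaks in 1872, 1490 and 4195 coding genes, against 5317 in 3090 in WT ESC replicate 2. Whether the density is particular to these Eif genes was not tested.

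Other genes of translation were compared as a list of 31 genes for elongation, termination, poly(A) binding and regulation. Of these, 22 (71.0%) had a peak in at least 1 library, 9 in at least 5 libraries and 1 in at least 10, against 63.8%, 16 of 58 and 7 of 58 Eif genes and 32.2%, 10.1% and 2.25% of all coding genes. The 1 was the helicase gene Ddx3x, in 12 libraries. Pabpc1, the main poly(A)-binding protein, and Rptor, a subunit of the growth-sensing mTOR complex, had a peak in 9 libraries each. The elongation factor genes Eef1a1 and Eef2 had one in 4 and 2 libraries.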

How the data were processed

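hMeRIP-seq peak lists of 13 IP libraries in 5 groups were used, grouped by the sample titles. The 13 input libraries entered only through the authors' peak calling. According to the study's methods and processing notes, the authors removed rRNA and tRNA reads with Bowtie2, trimmed with Trimmomatic, mapped with STAR to mm9 and called peaks against input with MACS2. The deposited intervals span 200 bp round each summit, and for 9 libraries the authors deposited the fold enrichment, a ratio of IP to input. The 4 knock-in lists hold positions only. Read depth is unknown, so no counting error could be given.

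Summits were assigned to GENCODE M1 gene spans on NCBIM37 (mm9) in Python 3.11.15 (numpy 2.4.6, pandas 2.3.3, pysam 0.24.0), which was tested on simulated data. Eif peaks overlapping by at least 1 bp were joined into regions. Genes with a peak in every library of a group or in at least 5 libraries were all named, with some others mentioned beside them. Regions were chosen for naming by the same rule. Library values were compared by exact permutation tests with Benjamini-Hochberg adjustment. Runs of a repeated unit of up to 4 nt counted as tandem repeats from 18 nt on, or from 20 nt for the longest unit. Between any 2 of the libraries at most 1.97% of intervals were identical. The members and lists were chosen with earlier results of these data known.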

Additional observations from a re-analysis of the deposited data

How the results depend on the processing

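Over 297 values under alternative settings, 237 stayed within the spread or side of the main value, 36 moved and 24 reversed. Differences with the replicate number as a block are among the 237 and could not move. No test passed 0.05 in a design whose smallest p is 0.1 or 0.333. The higher share of Eif peaks in TKO ESC and WT EB than in WT ESC kept its direction under every alternative run.

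With lists shortened to 498 peaks, the number of Eif genes with a peak differed by 0 (WT ESC against TKO ESC) and −1.33 (against WT EB), the exonic share by 8.33 and 11.3 points, and the median fold enrichment by 1.39 and 5.37. The genes in every library then numbered 2 in WT ESC and 1 in TKO ESC, and 1 was in every WT ESC and no WT EB library. For these counts, and for those at a fold enrichment of 6.18, the share of all coding genes was not counted. With peaks at or above a fold enrichment of 6.18, the gene number differed by 0, the exonic share by 1.12 and the median fold enrichment by 0.408 (WT ESC against TKO ESC), 0 genes were in every WT EB library and 1 was in every WT ESC and no WT EB library. With the 1703 libraries only, the genes in every library numbered 12 for WT ESC, 9 for TKO ESC and 6 for WT EB, 4 were in WT ESC and not TKO ESC, 3 in WT ESC and not WT EB and 1 each in the reverse, and the exonic share differed by 4.60 (WT ESC against TKO ESC). Counting any overlap with an exon, the exonic share differed by −9.33 (WT ESC against TKO ESC) and −12.9 (against WT EB), both with an exact permutation p of 0.1, and by 1.61 between the knock-in groups, and without the Argonaute, kinase and eIF4E-binding genes and Eif2d that of WT ESC and WT EB by 1.89. Without Eif3a and Eif5b, chosen after seeing the data, 2 genes were in every TKO ESC and 0 in every WT EB library, the exonic share differed by −14.6 (WT ESC against TKO ESC), −14.2 (against WT EB) and 4.58 (knock-in groups), and the median fold enrichment by −1.45 and −0.689, with exact permutation p of 0.3 to 0.8.

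Leaving out 1 library at a time, the number of Eif genes with a peak differed by 2.33 to 6.50 (WT ESC against TKO ESC), 4.83 to 8.50 (against WT EB) and 4 to 12 (knock-in groups), and the genes in every library ranged from 7 to 12 in WT ESC (12 without replicate 1), 4 to 9 in TKO ESC (9 without replicate 1), 3 to 6 in WT EB (6 without replicate 1), 20 to 28 in Tet2-KI ESC (28 without replicate 2) and 13 to 19 in Tet2dRBD-KI ESC (19 without replicate 2). Those in 1 group and not the other ranged from 0 to 2 for WT ESC and not TKO ESC and for WT ESC and not WT EB, from 0 to 1 for the reverse of both, from 4 to 13 for Tet2-KI ESC and not Tet2dRBD-KI ESC (13 without Tet2-KI ESC replicate 2, and 7 without Tet2dRBD-KI ESC replicate 1) and from 1 to 2 for its reverse. The exonic share difference ranged from −8.24 to 9.41 (TKO ESC), −10.4 to 4.48 (WT EB) and −7.98 to 2.27 (knock-in groups), the median fold enrichment difference of WT ESC and WT EB from −1.21 to 1.16 and the Eif share difference of the knock-in groups from −0.0569 to 0.248. The cause of these shifts was not tested beyond the fewer libraries that each count then has to meet. For genes in every library of a group, the share of all coding genes was not counted with fewer libraries.

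The replicate numbers were not taken as pairing the samples, since same-numbered libraries deviated together with correlations of 0.170, 0.114 and 0.0251 (WT ESC and TKO ESC), 0.0859, 0.000539 and −0.00443 (WT ESC and WT EB) and 0.00816 (knock-in groups), although each WT ESC library correlated best with the TKO ESC library of its number. With the replicate number as a block the differences are the same by construction, as compared groups have equal numbers of libraries. The share of Eif peaks then had p = 0.25 by exact sign flips in both comparisons with WT ESC. It is the smallest that 3 pairs allow.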
